A study of Mus musculus with 39 samples.

Results

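The genes described here are the Hox cluster genes, taken as every gene whose symbol in the deposited fold-change table is Hox, a cluster letter a, b, c or d, and a paralog number. The rule took 39 genes, read by 51 of the 40628 probes on the array, of 29407 genes in all. They form the Hoxa cluster on chromosome 6 (11 genes), Hoxb on chromosome 11 (10 genes), Hoxc on chromosome 15 (9 genes) and Hoxd on chromosome 2 (9 genes). The question was which of them were above background in brown fat samples and on which arrays they departed from the other arrays of the same diet.

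Hox genes encode homeodomain transcription factors that give cells their position along the body axis. Within a cluster, the genes with low paralog numbers are used at the head end of the axis and those with high numbers further back and in the limbs and genital tract, an arrangement called collinearity. Cells of the connective tissues keep much of this pattern in the adult, so that fat depots taken from different places differ in their Hox genes. Hox proteins bind DNA together with cofactors of the Pbx and Meis families.

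RNA was taken from C57BL/6J mice and hybridised to 39 one-colour Agilent arrays, 1 for each diet and time label. The labels call the tissue brown infiltrating macrophages, or stromal vascular cells (SVCs), of brown fat. The low-fat control diet (LFC, 10% of calories from fat) gave 10 arrays, at Day 1, Day 6, Day 10, Day 14 and Weeks 0, 3, 9, 12, 15 and 18. The high-fat diet (HFC, 60% of calories from fat) gave 11, at the same times and at Week 6. HF5, HF20 and HF75 (6 arrays each, Weeks 3 to 18) were the high-fat high-sucrose diet with 5, 20 or 75 µg of the botanical formulation KAL-1. HF20 Week 12 is HF20 by its title and source, while its diet field names the high-fat diet alone, and it was kept as HF20. Mice were weaned at 3 to 4 weeks of age, groups held 30 animals, and the labels do not say whether the RNA of several animals was pooled on an array. No diet had a second array under any time label, so every spread given below is a spread over these labels, called time points. For the liver arrays of the same experiment, the paper counted weeks from Day 14 and took Day 14 and Week 0 as the same time. The 2 labels are kept apart here, except that the trend over time sets both at day 14.

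Markers of more than the labelled cell type were measured. Emr1, a macrophage surface receptor, and Ucp1, the uncoupling protein of brown adipocytes, were above background on 39 of 39 arrays. In such bulk samples, fewer cells of a type and less RNA per cell cannot be told apart. The arrays differed widely in brightness, with 31.2% to 98.0% of spots above background (median 57.3%) and 75th percentiles of signal from 18.1 to 3974 (median 130). On 3 arrays (HF5 Week 12, HFC Week 12 and HF20 Week 15) over 10% of spots were flagged as outliers, and those spots were left out.

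The probes that carry the results are printed here, so that it can be seen what was measured. All 51 Hox probes were 60 bases long and most lay outside the homeobox. The probes of Hoxc9, Hoxa11, Hoxa10 (the brighter of 2) and Hoxb9 (the brighter of 2) gave departures described below, and that of Hoxa7 was above background on every array.
Hoxc9: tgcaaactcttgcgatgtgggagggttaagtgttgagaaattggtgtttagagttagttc
Hoxa11: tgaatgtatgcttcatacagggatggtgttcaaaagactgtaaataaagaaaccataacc
Hoxa10: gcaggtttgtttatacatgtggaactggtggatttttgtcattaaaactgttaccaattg
Hoxb9: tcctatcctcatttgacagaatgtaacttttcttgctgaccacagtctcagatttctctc
Hoxa7: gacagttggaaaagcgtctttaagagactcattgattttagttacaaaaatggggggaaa

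Only 3 of the 51 probes covered the homeobox codons of the conserved tryptophan, phenylalanine, glutamine and asparagine of the DNA recognition helix. One of these, the probe of Hoxc11, is shown next, and capitals mark those codons.
Hoxc11: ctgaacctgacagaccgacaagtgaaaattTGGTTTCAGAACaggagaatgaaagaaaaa
This is the stretch in which Hox genes are most alike. The closest probes of different genes, those of Hoxa9 and Hoxb3, were 76.1% identical over an aligned stretch of 46 bases, and no pair from different genes was over 90% identical. Both probes of this closest pair also cover those codons. Probes were compared only with each other and not with the transcripts of other Hox genes. These figures therefore do not show that a probe reads its own gene alone.

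A gene was counted as above background in this tissue when its brightest probe was marked well above background by the scanner software on at least 20 of the 39 arrays. This held for 19 of 39 Hox genes. The share of all genes that met this limit is not given here, so the count is not read as high or low. On single arrays, 7 to 35 Hox genes were above background (median 19), beside 31.2% to 98.0% of all spots (median 57.3%). The count was 7 of 11 in the Hoxa cluster and 7 of 10 in Hoxb, against 2 of 9 in Hoxc and 3 of 9 in Hoxd. Just outside the limit was Hoxa9 (19 arrays). No Hox probe was saturated on any array.

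**Figure D1:**
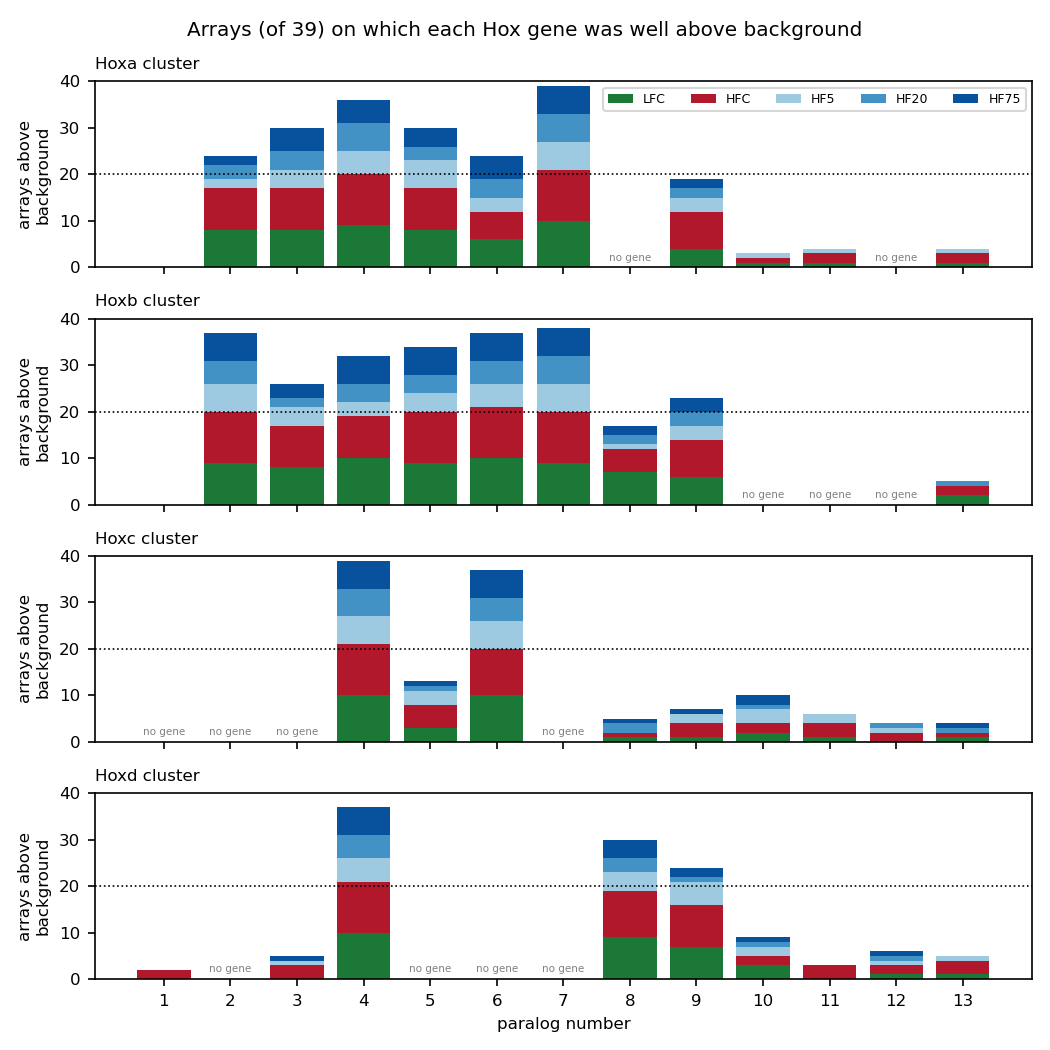
Each bar is 1 of 38 Hox genes, placed by cluster (panels) and paralog number (x axis), and its height is the number of the 39 arrays on which its brightest probe was above background, with colours for the diets and a dotted line at 20 arrays (Hoxb1 has a count of 0, and 1 gene is not drawn). Genes with paralog numbers 1 to 8 hold nearly all of the high counts, and no gene numbered 10 to 13 exceeds 10 arrays.

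Within the Hox genes, those numbered 10 to 13 were above background on fewer arrays than most of those with lower numbers. Of the 12 genes numbered 1 to 4, 9 were above background (median 28 arrays per gene), and of the 11 numbered 5 to 8, 8 were (median 30 arrays). The paralog group 9 was split, with Hoxd9 (24 arrays) and Hoxb9 (23) above and Hoxa9 (19) and Hoxc9 (7) not. None of the 12 genes numbered 10 to 13 met the limit, and their counts ran from 3 to 10 arrays with a median of 4.5.

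Low paralog numbers were not enough for a gene to be measured. Hoxb1, a gene of the embryonic hindbrain, was above background on 0 of 39 arrays, Hoxd1 on 2 and Hoxd3 on 5. The Hoxc cluster has no genes numbered 1 to 3 in mouse, and in it only Hoxc4 (39 arrays) and Hoxc6 (37) met the limit, whereas Hoxc5 between them reached 13 and Hoxc8 reached 5. In the Hoxd cluster, Hoxd4 (37), Hoxd8 (30) and Hoxd9 (24) did so. In the Hoxa cluster the genes from Hoxa2 to Hoxa7 all met it, at 24 to 39 arrays, and those from Hoxa9 to Hoxa13 did not. In Hoxb, Hoxb2 to Hoxb7 and Hoxb9 met it at 23 to 38 arrays, while Hoxb8 reached 17 and Hoxb13 reached 5.

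The remaining genes were above background on few arrays. Hoxc10, a gene described in subcutaneous white fat, reached 10 arrays, Hoxd10 reached 9, Hoxc11 and Hoxd12 6 each, and Hoxd13 5. Hoxa11, Hoxa13, Hoxc12 and Hoxc13 each reached 4, and Hoxa10 and Hoxd11 each 3. A probe that was not well above background bounds a gene's RNA from above only, so these counts do not show that the genes were silent.

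The 8 genes above background on at least 35 arrays were Hoxa7, Hoxc4, Hoxb7, Hoxb2, Hoxb6, Hoxc6, Hoxd4 and Hoxa4. All values below are log2 of the processed signal relative to the 75th percentile of the same array, and each probe is compared only with itself. Hoxa7, a thoracic-level gene, ran from -0.74 (HF20 Week 15) through a median of 1.46 to 2.44 (LFC Day 10). By diet it lay between 1.15 and 2.44 in LFC (median 1.56), between 0.77 and 2.40 in HFC (1.37) and between 0.72 and 1.99 in HF75 (1.56). Its HF5 arrays ran from 0.14 to 2.24 (1.30) and its HF20 arrays from -0.74 to 2.21 (1.27). These 5 ranges overlapped throughout.

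Hoxb2, which patterns the hindbrain and neck, ran from -1.45 through 0.32 to 1.35 over 38 arrays. Hoxb6 ran from -2.65 through -0.36 to 2.11, with an LFC median of 0.62 and HF5 and HF20 medians of -1.28 and -1.22. Hoxb7 ran from -2.15 through 0.12 to 2.01, with its lowest value on HF20 Week 15 and its highest on LFC Day 10, the same arrays that held the lowest and highest values of Hoxa7 and Hoxb6. The diets overlapped in each of these genes.

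Hoxc4 ran from -2.55 (LFC Week 18) through -0.04 to 1.81 (LFC Day 10). Hoxc6, a gene of the forelimb and thoracic levels, ran from -2.23 (LFC Day 6) through -0.46 to 1.02 (LFC Week 18) over 38 arrays. Hoxd4 had the widest range of the 8, from -3.63 (HF5 Week 3) through 0.12 to 1.63 (LFC Week 15), and Hoxa4 ran from -3.94 (HF20 Week 15) through -1.51 to 0.43 (HF75 Week 15). On HF20 Week 15, which held the lowest value of several of these genes, 71.4% of spots were flagged, and only 13 Hox genes had a value there.

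**Figure D2:**
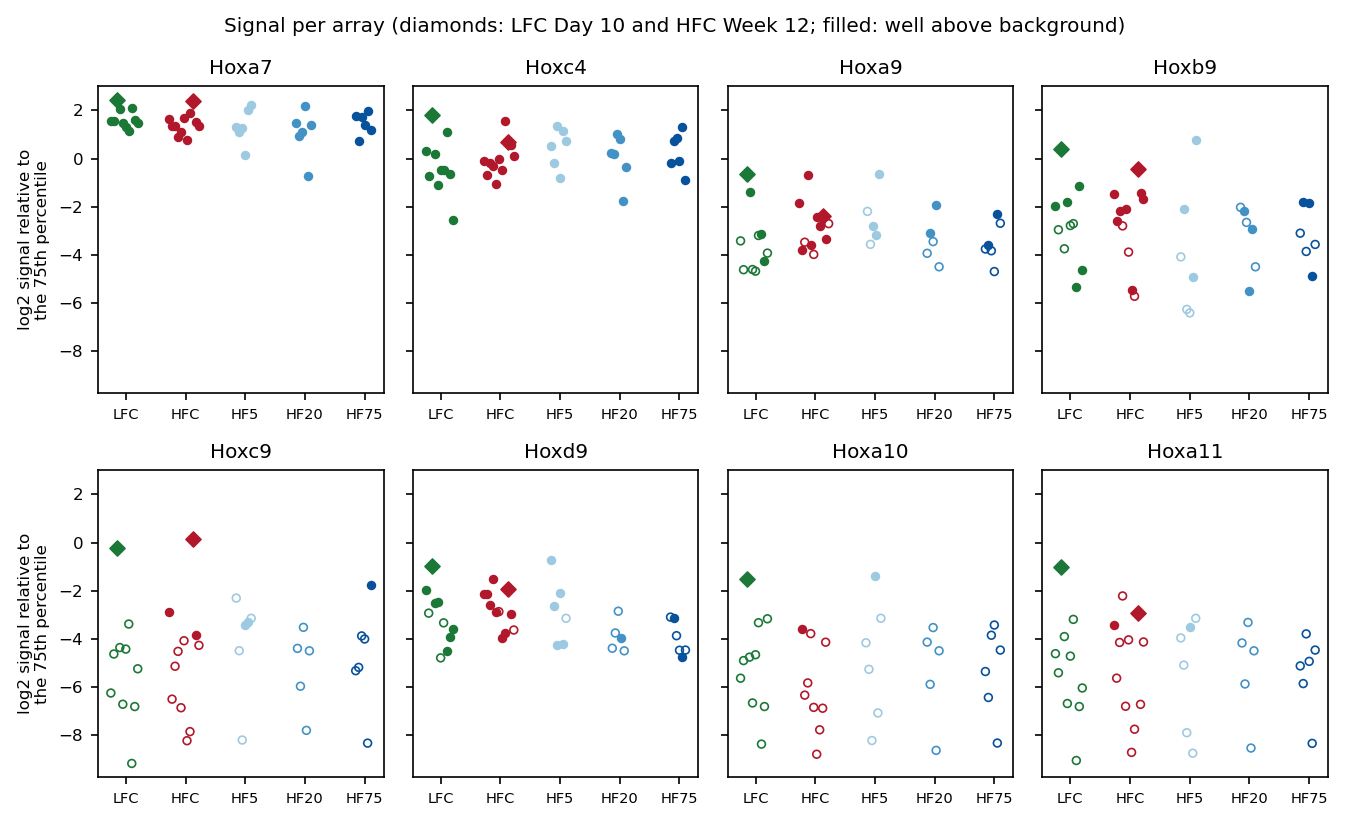
Signal of 8 Hox genes on each array, as log2 relative to the array's 75th percentile, by diet; filled points are above background, and diamonds mark LFC Day 10 and HFC Week 12. Hoxa7 is above background on 39 of 39 arrays, whereas Hoxc9, Hoxa10 and Hoxa11 are above background on 7, 3 and 4 arrays.

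On LFC Day 10, 27 of the 39 Hox genes were above background, as were 20609 of all 29407 genes. Of the 27 that could be compared, 13 were at least 2-fold higher than the median of the other 9 LFC arrays and 0 were lower. Over all 20867 genes compared, 21.5% were higher and 16.8% lower on this array by the same rule. The array is a single one chosen for its departure, so these values are a description with no test. The higher genes were mostly those numbered 5 to 11, in all clusters: Hoxc9, Hoxa11, Hoxa10, Hoxa9, Hoxb9, Hoxa6, Hoxd9, Hoxc4, Hoxb7, Hoxc6, Hoxb6, Hoxc5 and Hoxb3.

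Hoxc9, used as a marker of white as against brown fat, stood at -0.21 on LFC Day 10. The other LFC arrays ran from -9.19 through -5.25 to -3.39, none of them above background. Hoxc9 was thus at least 24.1-fold higher than the mean log2 level of the other LFC arrays (-4.81). For that mean, dim arrays were set to the lowest signal that was well above background on each. The bound is against the mean and does not hold for each single array. On HFC Day 10, scanned on the same date, it stood at -5.15 and was not above background.

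Hoxa11, which patterns the limb, kidney and uterus, stood at -1.01, against -9.07 through -5.42 to -3.20 on the other LFC arrays. It was at least 14.2-fold above their mean, taken in the same way. Hoxa10, a gene of the genital tract and hind limb, stood at -1.50, against -8.38 through -4.91 to -3.17, and was at least 8.46-fold above that mean. Neither was above background on any other LFC array. The second probe of Hoxa10 gave -1.73. On HFC Day 10, Hoxa11 stood at -4.16 and Hoxa10 at -5.84, both not above background.

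Hoxa9 and Hoxb9, the next genes in their clusters, were measured on some of the other LFC arrays. Hoxa9 stood at -0.62, against -4.68 through -3.93 to -1.38 (3 of 9 above background), a log2 difference of 3.31 from the median. That median comes from arrays where the probe was not above background, so the size depends on their floor, and with dim values raised to the lowest signal well above background it was 3.02. Hoxb9 stood at 0.41, against -5.35 through -2.79 to -1.14 (5 of 9 above background), a difference of 3.20, and its other probe gave 0.40. Both lay above every other LFC array. Hoxa6 stood at -0.86, against -4.56 through -3.53 to -0.69 (5 of 9 above background), a difference of 2.67, and LFC Day 14 lay higher. The medians of Hoxb9 and Hoxa6 are likewise values of arrays where the probe was not above background, so these sizes depend on the floor too.

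The other higher genes departed less. Log2 differences were 2.36 for Hoxd9, 2.29 for Hoxc4, 1.76 for Hoxb7, 1.67 for Hoxc6, 1.53 for Hoxb6, 1.38 for Hoxc5 (above background on 2 of the other 9 arrays) and 1.04 for Hoxb3. For Hoxd9, Hoxc5 and Hoxb3 the median was a value not above background, so the size depends on the floor. The probes of Hoxc4 disagreed, since its second probe stood at -4.29 on LFC Day 10. Hoxa2 to Hoxa5 were not among the higher genes, with differences from -0.83 (Hoxa5) to -0.05 (Hoxa2). Hoxb2 (0.24), Hoxb5 (-0.02) and Hoxd8 (0.02) also lay near the median.

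Of the 27 Hox genes above background on LFC Day 10, 10 stood above every other LFC array (Hoxa7, Hoxa9, Hoxa10, Hoxa11, Hoxb6, Hoxb7, Hoxb9, Hoxc4, Hoxc9 and Hoxd9), and 13.6% of all genes did so. Of the 8 measured Hox genes that were above background on no other LFC array, 3 (Hoxa10, Hoxa11 and Hoxc9) were above background here, against 16.1% of all such genes. Comparison was then limited to genes above background on this array and on most of the others (at least 5 of 9). In it 8 Hox genes were higher and 0 lower, against 14.5% and 19.2% of all genes. The number of Hox genes compared in it is not given, so these counts are not read as high or low. Among those within 2-fold were Hoxa2 to Hoxa5, Hoxa7, Hoxb2, Hoxb4, Hoxb5, Hoxb8, Hoxd4 and Hoxd8. The median log2 difference of the Hox genes compared was 0.68, against -0.12 over all genes. After normexp background correction, which adds an offset of 50 to the signal, no Hox gene passed 2-fold, and 3.13% of all genes were higher. The Hox difference had a median of 0.40 there, against 0.17 over all genes, and Hoxc9 gave 0.68.

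On HFC Week 12, 29 Hox genes were above background, as were 24076 of all 29407 genes. Because of flagged spots, 8 Hox genes had no value for their brightest probe (Hoxa6, Hoxa10, Hoxa13, Hoxb4, Hoxb13, Hoxc10, Hoxd1 and Hoxd10). The second probe of Hoxa10 gave -4.03. Of the 29 that could be compared with the other 10 HFC arrays, 9 were at least 2-fold higher and 3 lower, against 20% and 12.4% of all 24108 genes. Hoxc9 stood at 0.15, against -8.24 through -4.84 to -2.90 on the other HFC arrays (2 of 10 above background), a log2 difference of 4.99. The median lies among arrays where the probe was not above background, and with dim values raised to the lowest signal well above background the difference was 4.47. On the other 4 arrays of Week 12, which were scanned on the same date, Hoxc9 stood at -9.19 (LFC), -7.81 (HF20), -4.01 (HF75) and -3.42 (HF5). LFC Day 10 and HFC Week 12 thus held the highest values of Hoxc9 in the series, with HF75 Week 18 next at -1.78.

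The other higher genes departed less than Hoxc9. Hoxb9 stood at -0.45, against -5.73 through -2.38 to -1.44 (7 of 10 above background), a difference of 1.93, and its other probe gave -0.27. Hoxb8 stood at -2.04, against -7.90 through -4.09 to -2.87 (4 of 10 above background), a difference of 2.05. Hoxa11 (-2.94, a difference of 1.96) was above background on 1 of the other 10 HFC arrays, and HFC Day 14 lay higher. Hoxd13, a gene of the digits and genital tract, stood at -3.54 (a difference of 2.48, with 2 of 10 above background) and lay below HFC Day 14 (-0.61). With dim values raised likewise, the differences were 1.86 for Hoxb8, 1.79 for Hoxa11 and 1.51 for Hoxd13. Hoxc6 (1.79) and Hoxa7 (1.03) were measured on most of the other arrays. Hoxc12 and Hoxd12 passed 2-fold too, but were above background on 1 of the other 10 arrays each, so the size of their departure was not measured. With normexp background correction the differences of Hoxa11, Hoxb8 and Hoxd13 turned to -1.69, -1.04 and -2.10, and the median over all genes was itself -0.97.

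Of the 3 lower genes on HFC Week 12, Hoxa2 was measured on most of the other arrays (8 of 10). Hoxa2, a gene of the hindbrain and second pharyngeal arch, stood at -3.73, against -4.24 through -2.35 to -1.31, a difference of -1.38. Hoxd11 and Hoxc5 were above background on 2 and 4 of the other 10, so that their medians are background readings and bound the level from above only. Of the 29 genes above background, 5 exceeded every other HFC array, namely Hoxa7 (2.40), Hoxb7 (1.11), Hoxb8, Hoxb9 and Hoxc9, against 9.56% of all genes. Of the 2 Hox genes above background on no other HFC array and measured here, 1 (Hoxc8) was above background, against 33% of all such genes. With comparison limited likewise (at least 5 of the other 10), 3 Hox genes were higher and 1 lower, against 12.6% and 14.9%. The median log2 difference was 0.28 over the Hox genes compared and -0.08 over all genes. This array was bright, with 91.6% of spots above background and 11.1% flagged. With the flagged spots kept, 17 Hox genes were higher, against 27.2% of all genes, and the median difference was 0.84 against 0.18. For neither alternative is the number of Hox genes compared given, so these counts are not read as high or low. In the limited comparison, Hoxa3 to Hoxa5, Hoxa9, Hoxb2, Hoxb3, Hoxb5 to Hoxb7, Hoxc4, Hoxd4, Hoxd8 and Hoxd9 were among those within 2-fold.

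Other arrays also held many higher Hox genes. On HFC Day 1, 18 of 35 Hox genes were at least 2-fold above the median of their diet (34.7% of all genes), on HFC Day 14 15 of 31 (34.6%), and on LFC Day 14 12 of 27 (26.5%). Apart from LFC Day 10 and HFC Week 12, the LFC arrays held 0 to 12 higher Hox genes (median 3) and the HFC arrays 0 to 18 (median 1.5). The count on LFC Day 10 was thus exceeded on HFC Day 1 and HFC Day 14, and that on HFC Week 12 on all 3 of these arrays.

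**Figure D3:**
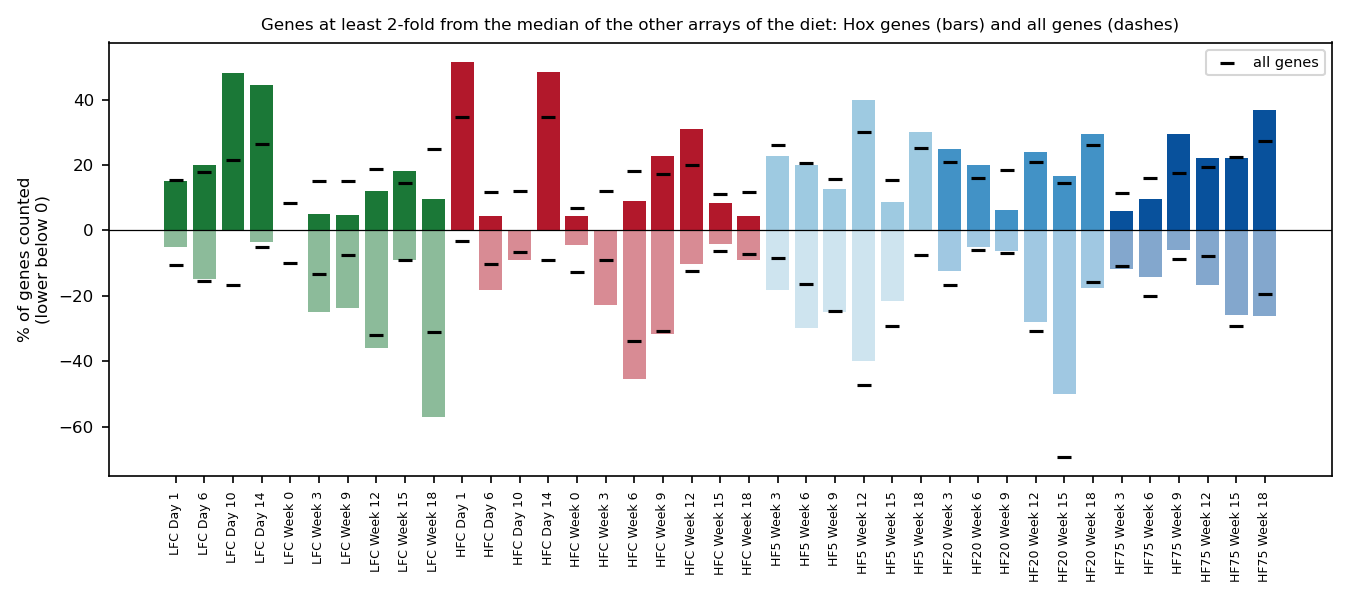
Bars give, for each array, the percentage of compared Hox genes at least 2-fold higher (up) or lower (down) than the median of the other arrays of its diet; dashes give the same over all genes. LFC Day 10, HFC Day 1 and both Day 14 arrays show 44.4% to 51.4% of Hox genes higher, with all genes at 21.5% to 34.7%.

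Markers of other cell types moved on the same 2 arrays. The mean log2 level of 11 mesothelial markers was 2.0 on LFC Day 10 and 1.83 on HFC Week 12, against -6.86 to -2.39 on the other LFC arrays and -6.14 to -2.47 on the other HFC arrays. All 11 were at least 2-fold higher on both. Wt1, a transcription factor of the mesothelium and visceral fat, stood at 0.57 and 1.46 and was above background on no other array. The mean of 7 epididymal genes was 1.44 on LFC Day 10 and -1.43 on HFC Week 12, against -7.32 to -2.67 and -7.40 to -2.89 on the others. On LFC Day 10, Lcn5, a lipocalin of the epididymis, stood at 4.15, and all 7 were higher.

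Brown adipocyte markers moved the opposite way. Their mean log2 level was -2.80 on LFC Day 10 and -4.04 on HFC Week 12, against 0.58 to 2.76 and -0.39 to 2.81 on the others. Lower were 8 of the 10 compared on LFC Day 10 and 6 of the 8 compared on HFC Week 12. Ucp1 stood at -3.16 and -3.18, against 2.83 to 7.33 on the other LFC arrays and 4.63 to 6.70 on the other HFC arrays. Stromal fibroblast markers were higher in 9 of 10 on LFC Day 10 and 4 of 10 on HFC Week 12. Macrophage markers were higher in 1 of 11 on LFC Day 10 and 10 of 11 on HFC Week 12, and endothelial markers lower in 1 of 7 and 7 of 7. General adipocyte markers gave 2 higher and 4 lower of 10, then 1 higher and 7 lower of 10. Skeletal muscle markers were lower in 8 of 8 and in 6 of 7. The part of these cell types in the Hox values was not tested.

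Fat depot patterning genes outside the Hox clusters moved in both directions on these arrays, with 6 higher and 5 lower of 12 compared on LFC Day 10 and 4 higher and 4 lower of 11 on HFC Week 12. Tbx15, a gene of the skeleton and of some fat depots, stood at -7.51 on LFC Day 10, not above background, against -3.27 to -1.70 on the other LFC arrays. Tbx5 stood at -5.26 there, against -3.95 to 0.32, and at -5.39 on HFC Week 12, against -2.20 to 0.01. Tcf21, a transcription factor of visceral mesenchyme, stood at 1.07 on LFC Day 10, against -8.99 to -0.94. Zic1, a marker of brown fat of the shoulder region, stood at -7.69 on LFC Day 10, against -3.0 to -0.37, and had no value on HFC Week 12.

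The DNA-binding partners of Hox proteins were above background on LFC Day 10 in all 9 cases. This was not particular to that array, since it held on other arrays in every diet, HFC Day 1 and HFC Day 14 among them. Of these partners, Pbx4, Meis1, Meis2, Meis3 and Pknox2 were at least 2-fold higher on LFC Day 10 and none was lower. Meis2 stood at 1.56, against -1.27 to 1.05, and at 1.20 on HFC Week 12, against -1.42 to 0.62. Pbx2, Pbx3 and Pknox1 did not pass 2-fold on either array. Of 6 cofactors compared on HFC Week 12, 1 was higher and 1, Pknox2, lower. Among 8 compared regulators of the clusters, which include the Polycomb proteins that keep Hox genes off, 0 were higher and 2 lower on LFC Day 10 (Eed and Bmi1), and 0 and 1 on HFC Week 12 (Cbx2). Among 8 compared neighbours of the clusters, 2 were higher and 3 lower on LFC Day 10, and 2 and 0 on HFC Week 12.

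The genes numbered 10 to 13 were above background on few arrays, with a median of 1 gene over the 39 arrays. The counts were 10 of 11 measured on HFC Day 1, 7 of 12 on HFC Day 14, 7 of 9 on HF5 Week 12, 6 of 7 on HFC Week 12, 6 of 12 on LFC Day 14 and 4 of 12 on LFC Day 10. HF5 Week 3, HF20 Week 12 and HF75 Week 15 each held 3 of 12, LFC Week 12 held 2 of 12, and HF20 Week 15 held 1 of the 1 measured. Beside them stands the share, on the same array, of rarely detected genes above background, meaning genes other than Hox genes that were above background on at most 10 of the other 38 arrays. That share was 73.1% on HFC Day 1, 71.1% on HFC Week 12, 72.3% on HF20 Week 15 and 50.6% on HF5 Week 12. It was 34.7% on HFC Day 14, 22.7% on LFC Day 10, 19.4% on LFC Day 14 and 5.13% on HF5 Week 3, the last being the median over the 39 arrays. The share was 27.8% on LFC Week 12, 26.4% on HF75 Week 15 and 23.8% on HF20 Week 12, and 15.9% on HFC Week 6, where 0 of 12 were above background. The part of this in the Hox counts was not tested.

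**Figure D4:**
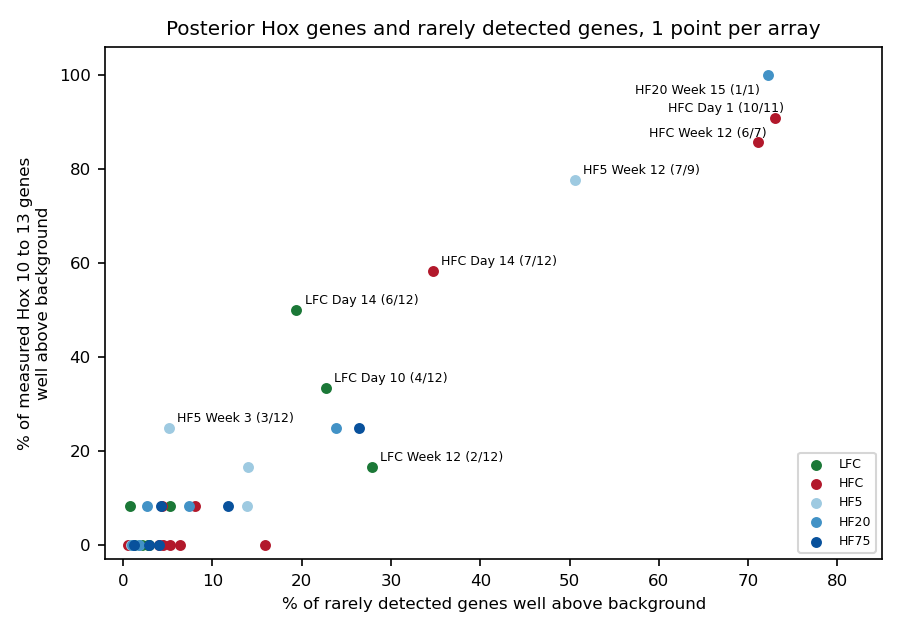
Each point is an array, with the percentage of rarely detected genes above background on the x axis and the percentage of measured Hox genes numbered 10 to 13 above background on the y axis. HFC Day 1, HFC Week 12 and HF20 Week 15 (1 gene measured) lie at the upper right, at 71.1% to 73.1% on the x axis, whereas both Day 14 arrays lie at 19.4% and 34.7%.

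Hoxa13, Hoxd13 and Hoxb13 were above background on both Day 14 arrays and not on LFC Day 10. Hoxa13, a gene of the digits and genital tract, stood at -0.91 (LFC) and -0.03 (HFC) at Day 14, against -6.63 and -5.64 at Week 0. Hoxd13 stood at -1.93 and -0.61, against -6.70 and -6.83, and Hoxb13, known from the prostate and hindgut, at -2.53 and -0.99, against -6.73 and -6.87. On LFC Day 10 they stood at -4.93 (Hoxa13), -5.99 (Hoxd13) and -7.75 (Hoxb13). The set was not particular to Day 14, since on HFC Day 1 the same genes were above background at -1.01, -1.58 and -1.41. Hoxc10 stood at -1.51 (LFC) and 0.17 (HFC) at Day 14, against -6.72 and -4.82 at Week 0, and was above background on LFC Day 10 too, at -4.39.

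Neither mesothelial nor brown adipocyte markers set the Day 14 arrays apart. The mesothelial mean was -3.65 (LFC) and -2.96 (HFC) at Day 14, within the range of the other arrays of each diet, and the brown adipocyte mean was 1.91 and 1.21. Other lists did lie at an extreme there. The mean of the Hox cofactors was -1.08 (LFC) and -0.68 (HFC), the highest of each diet. That of the cluster neighbours was -0.83 and -0.25, again the highest of each diet. The stromal fibroblast mean of HFC Day 14 (1.47) was the lowest of its diet, while LFC Day 14 (2.63) was not. Both Day 14 arrays were scanned on a date shared with no other array, so that scan date and time label cannot be told apart. The Week 0 arrays, which the paper took as the same time as Day 14 for liver, were scanned on another date. If that holds here, the differences between Day 14 and Week 0 given above lie between arrays of the same time. Their cause was not tested. Olfactory receptor genes, looked at after these values were seen, were above background in 15.04% and 26.5% of cases on the LFC and HFC arrays of Day 14. Over all 39 arrays that share ran from 3.10% to 80.5% with a median of 15.3%.

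The promoters of a gene seen on every array and of a neighbour seen on few other LFC arrays can be set side by side. The RefSeq table of the GRCm38.p6 build held 24 promoters of 22 Hox genes. Shown are the 250 bases before the start of Hoxa7 (chr6:52218574-52218823, minus strand) and of Hoxa9 (chr6:52227371-52227620, minus strand), with GGGCGG, the GC box, in capitals.
Hoxa7: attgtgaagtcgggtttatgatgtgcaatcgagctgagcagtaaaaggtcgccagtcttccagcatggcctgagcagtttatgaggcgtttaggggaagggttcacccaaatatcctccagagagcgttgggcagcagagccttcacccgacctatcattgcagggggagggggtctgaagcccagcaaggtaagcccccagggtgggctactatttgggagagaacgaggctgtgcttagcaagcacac
Hoxa9: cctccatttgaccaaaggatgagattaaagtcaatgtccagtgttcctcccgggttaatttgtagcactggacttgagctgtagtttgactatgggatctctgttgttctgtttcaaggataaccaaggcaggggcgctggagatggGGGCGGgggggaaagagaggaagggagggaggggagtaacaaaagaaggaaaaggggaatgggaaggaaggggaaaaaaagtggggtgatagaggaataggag
Of 24 Hox promoters, 10 held GGGCGG on either strand, 4 held TATAAA (the TATA box) and 2 held TGATTNAT, a sequence bound by Hox and Pbx proteins together. The shares over all 32851 promoters of the same length were 32.7%, 12.4% and 2.82%. The median GC content was 58.6% for the Hox promoters and 52.4% for all. A match is a description of the letters in this window.

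The diets were compared over the whole table with limma, with the time label as a block, and 32 Hox probes of 27 genes were bright enough to enter. None of them passed an adjusted p of 0.05 in any of 4 diet contrasts or in the trend over time in LFC and HFC, and neither did any other probe on the array (0% of 31713 called in each). The standard errors of the fitted differences, taken with the time label in the fit, were wide. Their median over the Hox probes was 0.41 for HFC against LFC and 0.51 to 0.55 for the KAL-1 contrasts. The methods' t-test on the same values gave 0 probes after Benjamini-Hochberg adjustment too.

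Between HFC and LFC, the Hox probes had a median log2 difference of 0.14, from -0.80 to 0.90, against 0.04 over all probes. At an unadjusted p under 0.05 there were 0 Hox probes in either direction, against 2.13% of all probes higher and 0.955% lower in HFC. The smallest p belonged to the second probe of Hoxc4 (0.90, SE 0.48, limma adjusted p = 0.999), whose brighter probe gave 0.27 (SE 0.40). Next came the second probe of Hoxb3 (0.41, SE 0.29, limma adjusted p = 0.999), whose brighter probe gave 0.32 (SE 0.33). With normexp background correction, Hoxc4 gave -0.19 and Hoxb3 -0.21, and the median over all probes shifted to -0.24.

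In HF5 against HFC, 0 Hox probes were higher and 2 lower at an unadjusted p under 0.05, against 0.4% and 1.19% of all probes. These were Hoxd8, a gene of the trunk, and Hoxd4. Hoxd8 ran from -3.50 through -2.79 to -2.07 on the 6 HF5 arrays and from -1.80 through -1.47 to -0.85 on the 11 HFC arrays, and was above background on 4 of the 6 HF5 arrays. The diets did not overlap, which held in this direction for 1 of 21 Hox genes and for 0.0109% of all 18358 genes that were above background on at least 6 arrays and had a value on every HF5 and HFC array. The fitted difference was -1.23 (SE 0.31), which did not pass (limma adjusted p = 1.00). Hoxd4 differed by -1.25 (SE 0.60, limma adjusted p = 1.00), with HF5 running from -3.63 to 0.60 and HFC from -0.86 to 1.27. The median over the Hox probes was -0.14, and over all probes -0.06.

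In HF20 against HFC, 1 Hox probe was higher and 0 lower at an unadjusted p under 0.05, against 1.37% and 1.46% of all probes. Hoxa6 differed by 1.84 (SE 0.76, limma adjusted p = 0.985) and Hoxc10 by 2.26 (SE 1.22, limma adjusted p = 0.985). Both rested on HF20 Week 15, where Hoxa6 stood at 2.12 and Hoxc10 at 2.32 and most spots were flagged. Without that array the differences were 0.85 and 0.90. The median was -0.04 over the Hox probes and -0.06 over all.

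In HF75 against HFC, 2 Hox probes were higher and 1 lower at an unadjusted p under 0.05, against 2.81% and 1.01% of all probes. The probe of Hoxa3 with the smaller p gave 0.89 (SE 0.35, limma adjusted p = 1.00), while its other probe gave -0.42 (SE 0.36). The brighter probe ran from -2.12 through -1.72 to -1.20 in HF75 and from -3.67 through -2.25 to -1.85 in HFC, so the diets overlapped. Hoxd8 differed by -0.75 (SE 0.31, limma adjusted p = 1.00), and by 0.11 with normexp background correction, which moved the median over all probes to 0.34. The third was the second probe of Hoxc4 (1.24, SE 0.60). The medians were -0.002 over the Hox probes and 0.01 over all.

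**Figure D5:**
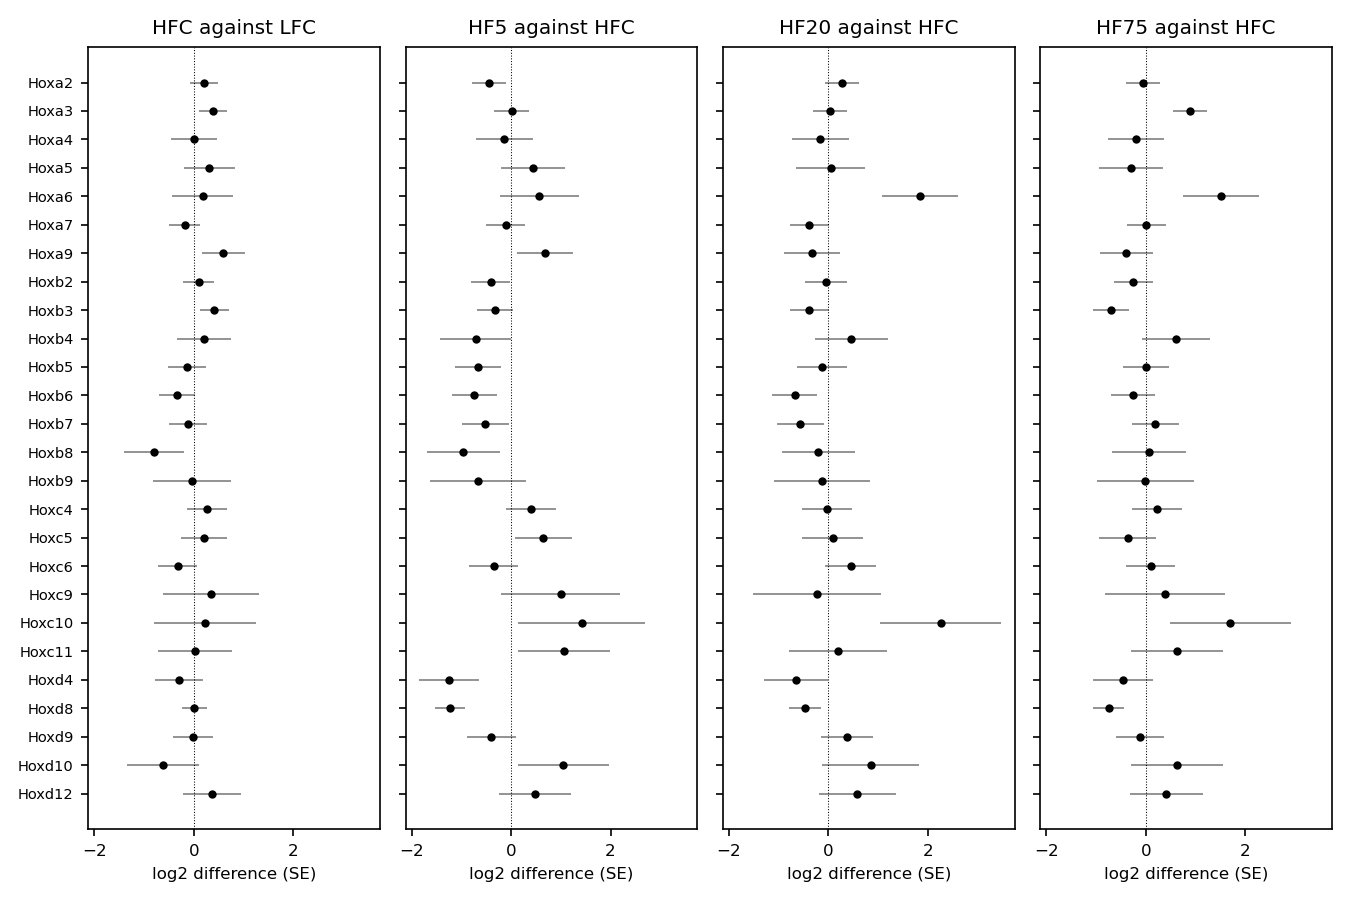
Fitted log2 difference between diets for 26 Hox genes, 1 probe per gene (the one with the smaller standard error), with bars of 1 SE. The points scatter around 0 in all 4 diet contrasts, and no Hox probe passed the adjusted threshold.

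Over time in LFC and HFC, the slope per doubling of days was negative for 26 of 32 Hox probes and positive for 6. At an unadjusted p under 0.05, 1 was higher and 7 lower with time, against 4.49% and 8.39% of all probes. Hoxb3 gave -0.26 (SE 0.06, limma adjusted p = 0.144) and Hoxb5, a gene of lung and gut development, -0.30 (SE 0.08, limma adjusted p = 0.161). Hoxb3 stood between -2.82 and -1.83 on the LFC arrays up to Week 0 and at -4.75 at Week 18. In HFC it stood between -2.75 and -1.63 and at -4.39. The probe was not above background on HFC Week 18, so that last value bounds the level from above only. Hoxb5 stood between -0.53 and 1.19 in LFC up to Week 0, at -0.45 at Week 15 and at -3.22 at Week 18, and in HFC between -1.08 and 0.30 and at -1.44. The second probe of Hoxb3 gave -0.15 (SE 0.09). The median slope was -0.12 over the Hox probes and -0.04 over all, and neither gene passed the threshold. At the same unadjusted threshold, endothelial markers were lower in 7 of 7 (median slope -0.28), and brown adipocyte markers were higher in 3 of 10 and skeletal muscle markers in 2 of 8. Their part in the Hox slopes was not tested. Early and late arrays were scanned on different dates, so that time and scan date cannot be told apart.

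The genes around the Hox pathway gave no call either. None of the 9 cofactors, 8 regulators, 8 cluster neighbours or 11 depot patterning genes that entered the fit passed an adjusted p of 0.05 in limma in any contrast. At an unadjusted p under 0.05, the counts were 0 of 9 cofactors between HFC and LFC, 1 lower in HF5, 0 in HF20, 0 in HF75 and 1 lower over time. Of the regulators, 0 were higher or lower in the diet contrasts and 3 were lower over time.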

How the data were processed

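RNA of 39 samples was hybridised to one-colour Agilent arrays. The deposited scanner files hold the intensity of 43803 spots other than controls, made by the authors with Agilent Feature Extraction (9.1 per the processing notes) and already background-subtracted and spatially detrended in the processed signal column. The deposited series table holds log2 ratios that the authors made against 1 array of the same time (LFC, but HFC at Day 14, and no column of zeros at Week 6), and served for gene symbols, probe sequences and 1 alternative. The genome build used for probe design is not given in the sources used here.

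Spots flagged as outliers were dropped, spots of a probe averaged, and log2 of the processed signal set relative to each array's 75th percentile, which centres the arrays but does not remove the floor of dim spots. That floor differs between arrays, so large differences of dim genes depend on it. The brightest probe stood for a gene. Contrasts were fitted with limma 3.58.1 in R 4.3.3 (statmod 1.5.0) on 31713 probes well above background on at least 6 arrays, two-sided, with Benjamini-Hochberg adjustment over all of them. Diet and time label entered, the latter as a block, and for the trend diet and log2 days, with weeks counted from Day 14. Other steps used Python 3.11.15. The fit was tested on simulated data. Replicate numbers are not given in the labels. LFC and HFC arrays of a time deviated together with a median correlation of 0.20, over 0.1 at 5 of 10 times.

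Members, gene lists and tests were chosen with earlier results of these data known. Named genes were the up to 6 largest departures in each direction on both arrays, the genes above background on at least 35 arrays, and the 2 smallest p per contrast. Alternatives were quantile normalization, normexp, other filters, kept flags, array weights, scan date or slide (36 slides, 18 scan dates) as a block, no block, left-out time points and the methods' t-test. With 1 array per diet and time label, p-values rest on the spread over these labels that the fit leaves. The number of arrays limits the precision. Some genes and probe sequences are not reported here.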

Additional observations from a re-analysis of the deposited data

Results flagged for a closer look

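In 88 groups, each 1 Hox gene over the arrays of 1 diet, the highest or lowest array was compared with the rest, and in 5 of them it lay apart by Dixon's test. Chance alone gives about 1 in 20. Hoxa6 on HF20 Week 15 stood at 2.12, against -3.41 to -1.51 on the other HF20 arrays, and 71.4% of the spots of that array were flagged. The other 4 were not above background on the array that lay apart, so that their low values are bounds that depend on the floor of that array. Hoxb2 on LFC Week 18 stood at -1.24, against 0.01 to 1.03 on the other LFC arrays. Hoxa2 on HF75 Week 18 stood at -4.47, against -3.29 to -2.60. Hoxb8 on HF20 Week 12 stood at -7.59, against -4.50 to -3.05, and Hoxc9 on HF5 Week 9 at -8.21, against -4.50 to -2.31.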

How the results depend on the processing

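No alternative of the 5 contrasts brought a Hox probe past the threshold: all 119 gave 0, leaving out each time point gave 0 to 0, and the fit without the replicate block (diet alone) gave 0 Hox probes in each of the 4 diet contrasts. With normexp, Hoxc4 (-0.19) and Hoxb3 (-0.21) between HFC and LFC, Hoxd8 in HF75 against HFC (0.11), and Hoxa11 (-1.69), Hoxb8 (-1.04) and Hoxd13 (-2.10) on HFC Week 12 changed sign. Hox genes above background numbered 2 when every array had to show them and 38 when 1 array sufficed, and 18 to 28 otherwise, against 19. The higher Hox genes on LFC Day 10 numbered 0 with normexp and 8 when both sides had to be above background, against 13, and 11 to 14 otherwise, with 0 lower throughout. On HFC Week 12, against 9 higher and 3 lower, normexp gave 2 and 18, kept flagged spots gave 17 higher, comparison with Weeks 3 to 18 gave 1 lower, and both sides above background gave 3 and 1. Raising dim values to the lowest signal well above background, chosen after the data were seen, gave 11 higher and 0 lower on LFC Day 10 and 8 and 3 on HFC Week 12. Signal over background limits the genes numbered 10 to 13, whose values on most arrays are upper bounds, and the cause of the changes above was not tested.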
